A study of Mus musculus with 3 samples.

Results

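Cortical layer 4 was followed in 3 mouse brain sections through the 120 spots of each section that scored highest for Rorb, Scnn1a, Rspo1, Plcxd2 and Mef2c. The score of a spot was the sum, over these 5 genes, of the natural log of 1 plus its counts per 10000, and spots with at least 3000 unique molecular identifiers (UMIs, counts of captured RNA molecules) could be chosen. This gave 120 of 3332 spots in the O-Ex section, 120 of 3498 in the O-Ctrl section and 120 of 3409 in the Y-Ctrl section, or 360 of 10239 spots in all. The sections came from fresh frozen brain of C57BL/6J mice, were 10 µm thick and were laid on a Visium array, which captures polyadenylated RNA in barcoded spots. O-Ex carries the treatment label exercise, and O-Ctrl and Y-Ctrl are controls without it. From the series title, which is on exercise and aging, O was taken to mean old and Y young, but the labels give no ages, no kind or length of exercise and no sex or number of animals. Each group has 1 section, so section, animal and condition cannot be told apart, and no test between groups was possible. A spot covers parts of several cells, and every value belongs to spots and not to cells.

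Layer 4 is the main input layer of sensory cortex. Axons from the thalamus end there on small excitatory neurons, many of them spiny stellate cells, and on parvalbumin interneurons, and layer 4 neurons pass the signal on to the layers above. Rorb encodes the nuclear receptor ROR beta, which helps to shape layer 4 identity. Transcripts of immediate early genes such as Fos, Arc and Egr1 build up within minutes of synaptic activity and serve as a record of recent firing.

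The sections held 53196124, 58234443 and 62348064 UMIs in O-Ex, O-Ctrl and Y-Ctrl, and their layer 4 spots held 2253677, 2916956 and 3082206. The median layer 4 spot had 21901.5, 25130.5 and 27112 UMIs, against 13447.5, 14645.5 and 15566 in the other spots of at least 3000 UMIs. Shallow spots were unevenly shared: 25 layer 4 spots of O-Ex, 3 of O-Ctrl and 5 of Y-Ctrl had fewer than 5000 UMIs, and they carried 4.44%, 0.345% and 0.645% of the layer 4 UMIs. The last spot taken in scored 3.79251 in O-Ex, 3.67018 in O-Ctrl and 3.78154 in Y-Ctrl, and the first left out scored 3.79114, 3.66122 and 3.77686. The median over all eligible spots was 1.23, 1.12 and 1.29. The limit therefore runs through a continuous range of scores and not through a gap. Ranking the spots after thinning each to 3000 UMIs chose 60, 65 and 50 of the same 120 spots, so the exact membership changed with depth. The sections share the array's barcodes, and 24 layer 4 barcodes were common to O-Ex and O-Ctrl, 22 to O-Ex and Y-Ctrl and 48 to O-Ctrl and Y-Ctrl. These are equal positions on separate arrays and not shared cells.

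**Figure D1:**
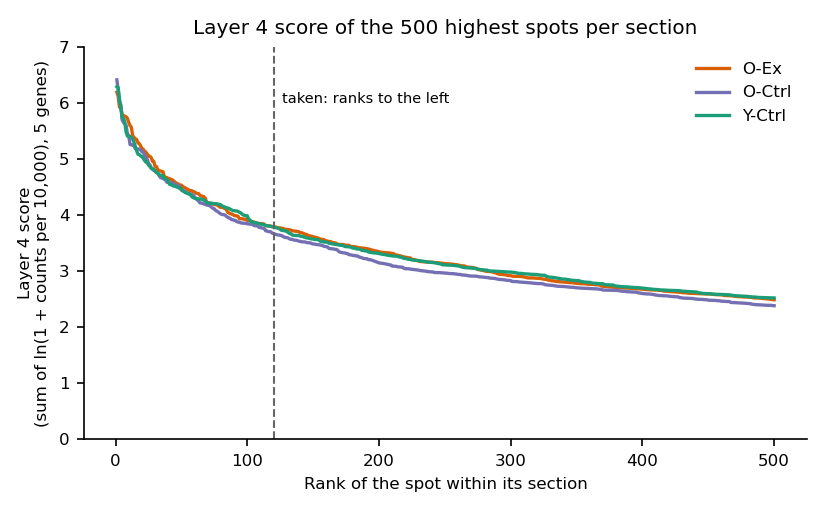
Score of each spot (sum of the natural log of 1 plus counts per 10000 over the 5 genes) against its rank in the section, for O-Ex, O-Ctrl and Y-Ctrl. The curves fall smoothly through the limit at rank 120, where scores are 3.79251, 3.67018 and 3.78154.

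The genes that chose the spots were far apart from the rest by construction, and they are given as a description. Values are CPM, the counts summed over the 120 spots and scaled to 1000000 UMIs. Rorb had 132 CPM in layer 4 spots of O-Ex, 132 in O-Ctrl and 141 in Y-Ctrl, against 21.6, 22.7 and 30.1 in the other spots. Mef2c, a transcription factor of maturing excitatory neurons, had 720, 720 and 728 CPM, against 206, 193 and 211. Plcxd2 had 237, 215 and 216 CPM, and Rspo1, which encodes a secreted amplifier of Wnt signalling, had 70.6, 72.3 and 66.5. Scnn1a, a subunit of the epithelial sodium channel and a standard layer 4 driver gene, was scarce at 14.2, 14.7 and 11.0 CPM and was seen in 18, 32 and 26 of the 120 spots. The chosen spots thus held like levels of the 5 genes in the 3 sections. All 5 genes were detected together in 12, 16 and 16 spots, and 9, 2 and 1 spots entered with only 2 of them.

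Layer 4 genes that took no part in the choice fitted the label in large part. Of 13 such genes the summed level was 503, 499.8 and 486 CPM in layer 4 spots of O-Ex, O-Ctrl and Y-Ctrl, and 237, 219 and 223 in the other spots. Plxnd1, a semaphorin receptor, had 107 CPM in O-Ex, 122 CPM in O-Ctrl and 89.9 CPM in Y-Ctrl, and its log2 ratios over the other spots were 1.92, 2.05 and 1.72 (log2 of CPM plus 5, as for all ratios here). Whrn, a scaffold protein known from hair cells of the ear, had 64.8 CPM in O-Ex, 51.4 CPM in O-Ctrl and 55.8 CPM in Y-Ctrl, with log2 ratios of 1.93, 1.71 and 1.74. Thsd7a, Unc5d, Cux2, Cux1 and Tmem215 were also higher than in the other spots in every section. Ctxn3 went against the label, at 5.77 CPM in O-Ex, 6.17 CPM in O-Ctrl and 7.46 CPM in Y-Ctrl, below 37.9, 25.8 and 17.9 CPM in the other spots, and Pcdh20 was close to them with log2 ratios of -0.23, 0.04 and 0.03. Markers of some other regions were low but not absent. Thalamus markers summed to 41.7, 56.9 and 39.3 CPM, against 299.9, 307 and 515 in the other spots, and hippocampus markers to 91.9, 85.7 and 74.6, against 209, 167 and 177. Layer 6 markers summed to 111, 86.7 and 88.9 CPM, against 187, 169.7 and 162. Upper layer, layer 5 and striatum markers were not low. Upper layer markers summed to 475, 470.0 and 588 CPM, above the 389, 392 and 430.5 of the other spots in every section. Layer 5 markers summed to 205, 170.4 and 143 CPM, against 174, 173 and 166, and striatum markers to 112, 106 and 152, against 113, 132 and 131. Of the layer 4 spots, 4, 0 and 2 were also among the 120 highest of their section for upper layer markers and 6, 6 and 4 for layer 5 markers. Myelin genes stood at 2624, 2623 and 2223 CPM, against 8107, 8703 and 8024 in the other spots.

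**Figure D2:**
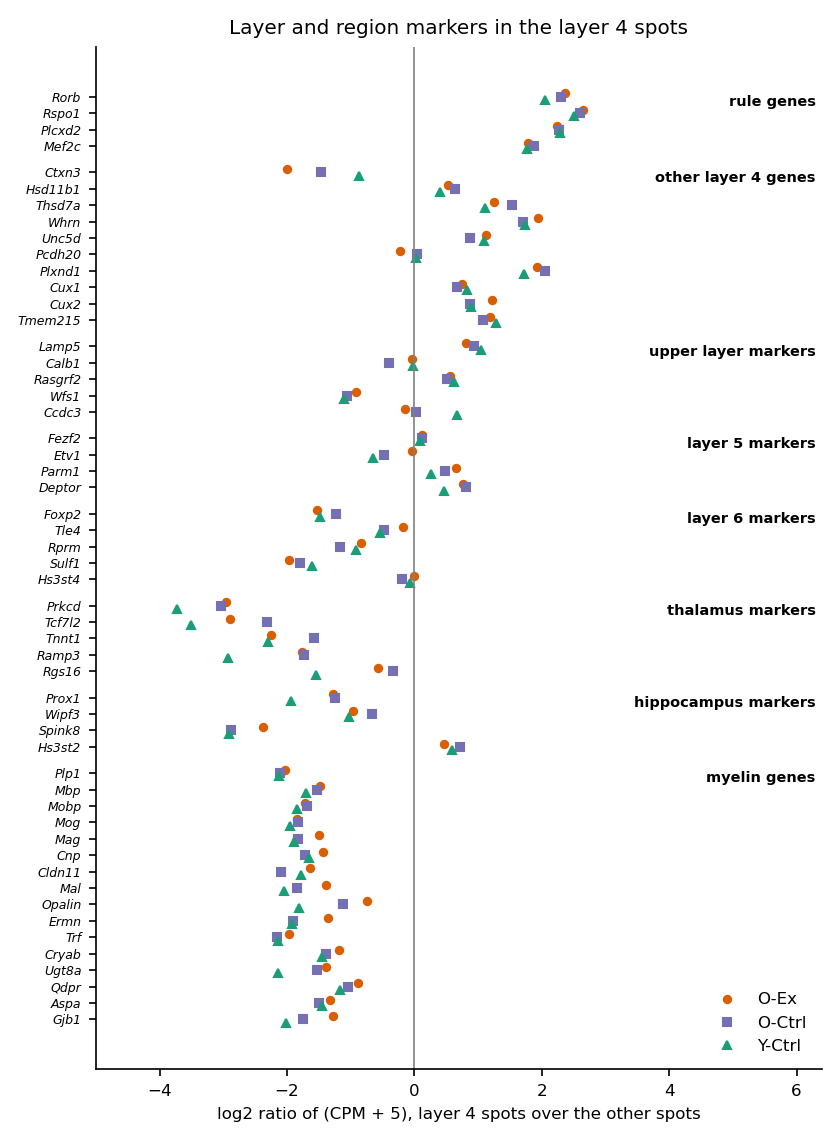
Log2 ratio, as defined in the text, of layer 4 spots over the other spots for layer 4 genes and for markers of other layers and regions, in O-Ex, O-Ctrl and Y-Ctrl. The levels behind the ratios of Rorb are 132, 132 and 141 CPM in layer 4 spots and 21.6, 22.7 and 30.1 CPM in the other spots.

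Beyond markers, the layer 4 spots shared a set of transcripts in all 3 sections. Of 8912 genes, 376 (4.22%) were at least 1.5-fold higher than in the other spots in all 3 sections and 331 (3.71%) at least 1.5-fold lower. These counts describe spots that were chosen by expression, and no test applies. Pamr1 led the genes outside the rule, with 94.1 CPM in O-Ex, 97.4 CPM in O-Ctrl and 85.7 CPM in Y-Ctrl and log2 ratios of 2.14, 2.33 and 1.98. Dkkl1, related to the Dickkopf family, had 84.8 CPM in O-Ex, 102 CPM in O-Ctrl and 94.7 CPM in Y-Ctrl and log2 ratios of 1.94, 2.19 and 1.96. Both were nearly level across the 3 sections, with overlapping intervals. Gfra2, the receptor for neurturin, had 118 CPM in O-Ex, 147 CPM in O-Ctrl and 129 CPM in Y-Ctrl. Tcap, known as a sarcomere protein of muscle, had 31.1 CPM in O-Ex, 30.5 CPM in O-Ctrl and 18.2 CPM in Y-Ctrl, and was higher in both O sections than in Y-Ctrl. Krt12, a keratin, had 87.4, 108 and 121 CPM in O-Ex, O-Ctrl and Y-Ctrl, against 20.9, 30.7 and 30.6 in the other spots. Ovol2 and Ddit4l were of the same kind, with log2 ratios of 1.69, 1.85 and 1.78 and of 1.63, 1.78 and 1.85. Egr1, the immediate early transcription factor, was also among the leading genes, at 404, 288 and 443 CPM against 115, 74.7 and 113. Abundant neuronal transcripts were raised less: Camk2n1, an inhibitor of CaM kinase II, had log2 ratios of 1.52, 1.52 and 1.43, and Nrgn, a calmodulin-binding protein of spines, of 0.97, 1.13 and 1.09.

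At the other end, transcripts of choroid plexus and thalamus were lowest relative to the other spots. Ttr, the transthyretin of choroid plexus epithelium, had 390.5 CPM in O-Ex, 131 CPM in O-Ctrl and 129 CPM in Y-Ctrl in layer 4 spots, against 13050, 5119 and 4192 CPM in the other spots. Prkcd, a kinase abundant in thalamic neurons, had 10.2, 10.3 and 10.4 CPM and log2 ratios of -2.96, -3.03 and -3.72, and Tcf7l2, a thalamic transcription factor, had 7.10, 11.7 and 6.16 CPM, against 85.0, 78.2 and 122. 1500015O10Rik, another transcript of choroid plexus, had log2 ratios of -4.16, -2.64 and -3.01. Kl, the klotho gene of choroid plexus, had 2.22, 1.03 and 0.973 CPM, against 76.8, 32.8 and 30.6. A few layer 4 spots still carried Prkcd: it was not seen in 103, 99 and 93 of the 120 spots of O-Ex, O-Ctrl and Y-Ctrl.

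The control sections O-Ctrl and Y-Ctrl differed in a small set of genes. Fos, Arc, Nr4a1 and other immediate early genes were lower in layer 4 spots of O-Ctrl, and so were all 4 measured erythrocyte transcripts. Interferon-induced Gbp2 and Igtp, the endothelial surface genes Ly6a and Ly6c1 and the interneuron genes Pvalb, Syt2 and Cnr1 were higher in O-Ctrl. A gene was counted as measured with a mean of at least 10 CPM over the 3 sections, and as called when the ratio of CPM plus 5 was at least 1.5-fold and the exact 95% Poisson intervals did not overlap. The mean takes in the section where a gene is high, so a scarce gene can be measured through that section alone. Of 8748 measured genes, 49 (0.56%) were called higher and 51 (0.583%) lower in O-Ctrl. The median log2 ratio over all measured genes was 0.01, and 98.38% of them lay within 1.5-fold. The intervals cover counting error only and say nothing of the spread between animals.

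Among the immediate early genes, 17 of 20 were measured, 9 were called lower in O-Ctrl and 0 higher, and their median log2 ratio was -0.61 against 0.01 over all genes. In a tissue spot, fewer cells of a type and less RNA per cell cannot be told apart, here and in every result below. Fos (chr12:85473890-85477273, mm10, as for all gene positions), a subunit of the AP-1 transcription factor, had 33.3 CPM (26.2 to 41.7) in O-Ex, 26.7 (21.1 to 33.4) in O-Ctrl and 81.1 (71.4 to 91.8) in Y-Ctrl, with a log2 ratio of -1.44 for O-Ctrl over Y-Ctrl. Arc (chr15:74669083-74672570), which acts at synapses in receptor trafficking, had 46.6 CPM (38.1 to 56.4) in O-Ex, 73.0 (63.5 to 83.5) in O-Ctrl and 186 (171 to 202) in Y-Ctrl, with a log2 ratio of -1.29. Nr4a1 (chr15:101254269-101274795), a nuclear receptor, had 59.9 CPM (50.2 to 70.9) in O-Ex, 71.0 (61.6 to 81.3) in O-Ctrl and 136 (124 to 149.9) in Y-Ctrl, with a log2 ratio of -0.90. In these 3 genes Y-Ctrl was the highest section and its interval overlapped that of neither other section.

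Egr1 and Egr3, zinc finger transcription factors, had another order. Egr1 had 404 CPM (378 to 431) in O-Ex, 288 (268 to 308) in O-Ctrl and 443 (420.0 to 467) in Y-Ctrl. Egr3 had 117 CPM in O-Ex, 65.1 CPM in O-Ctrl and 112 CPM in Y-Ctrl. O-Ctrl was the lowest section for both, with log2 ratios of -0.61 and -0.74 over Y-Ctrl, while O-Ex and Y-Ctrl lay close together. Junb, a partner in AP-1, had 43.9 CPM in O-Ex, 55.2 CPM in O-Ctrl and 91.5 CPM in Y-Ctrl, with a log2 ratio of -0.68. Jun, another, had 31.5 CPM in O-Ex, 31.2 CPM in O-Ctrl and 51.3 CPM in Y-Ctrl, with a ratio of -0.64. Both O sections were below Y-Ctrl for these partners. Ier2 had 10.2, 16.8 and 31.8 CPM in O-Ex, O-Ctrl and Y-Ctrl and a ratio of -0.76. Btg2, an antiproliferative early gene, had 8.43, 6.51 and 16.2 CPM and a ratio of -0.88. They too were highest in Y-Ctrl, and the call of Btg2 was lost in 9 of 21 settings. Npas4, a neuronal activity gene, missed the level of a measured gene, at 6.66, 5.49 and 16.2 CPM.

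Summed over the 20 genes, the level was 1203, 1027 and 1639 CPM in layer 4 spots of O-Ex, O-Ctrl and Y-Ctrl, against 572, 484 and 691 CPM in the other spots. The lower level in O-Ctrl was also seen outside layer 4: the list's median log2 ratio was -0.44 in the other spots, -0.57 in upper layer spots, -0.49 in layer 5 spots and -0.71 in layer 6 spots, where each layer set is 120 spots taken by the markers of that layer. Arc, for one, had ratios of -1.06, -1.24 and -1.89 in upper layer, layer 5 and layer 6 spots. The list's median stayed between -0.64 and -0.36 over 21 other settings, and the number of members called lower lay between 2 and 11. With a minimum of 6000 UMIs per spot it was 8, and with spots ranked after thinning 4.

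**Figure D3:**
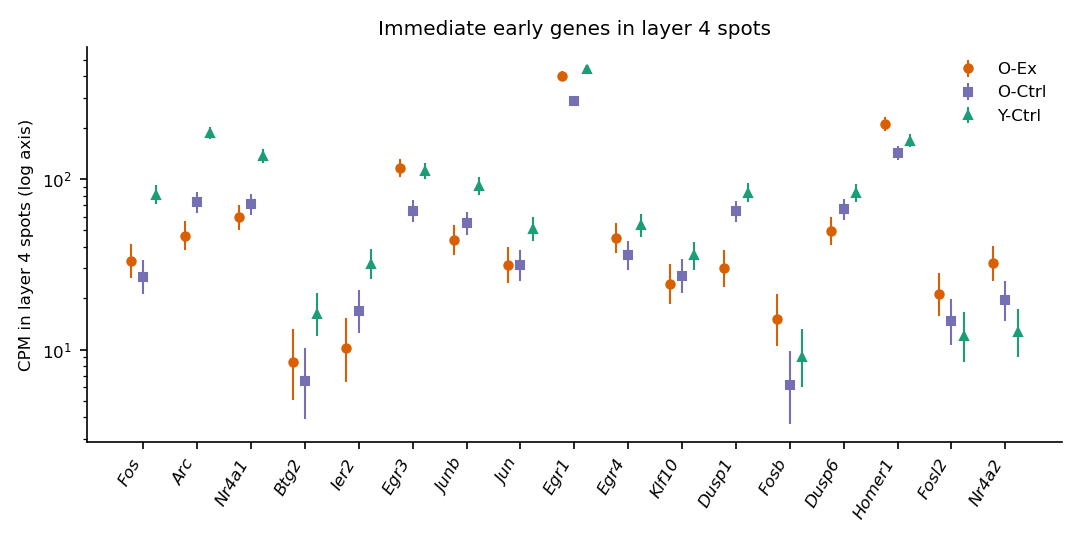
CPM on a log axis of the 17 measured immediate early genes in layer 4 spots of O-Ex, O-Ctrl and Y-Ctrl, with exact 95% Poisson intervals as bars. Fos, at 33.3, 26.7 and 81.1 CPM, and Arc, at 46.6, 73.0 and 186 CPM, show Y-Ctrl well above both O sections.

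Within a section these transcripts were spread over many spots. Fos was seen in 44, 47 and 81 of the 120 layer 4 spots of O-Ex, O-Ctrl and Y-Ctrl, and Arc in 54, 81 and 100. With each spot thinned to 3000 UMIs, which lost no layer 4 spot, the shares were 7.50%, 3.33% and 18.3% for Fos and 9.17%, 15.0% and 40.8% for Arc. Egr1 was seen in nearly every spot, 104, 108 and 111, and in 61.7%, 46.7% and 66.7% after thinning. For these 3 genes the sections had the same order by thinned share as by CPM. The 6 spots with the most Arc held 27.6%, 21.1% and 18.7% of its counts.

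The sequences just before the start of Fos, Nr4a1 and Junb are shown for motifs of activity-dependent transcription. The 3 genes were picked from the called early genes, and the share of early genes with such a motif was not counted. Arc had no entry among the promoters used. In RefSeq promoters on GRCm38.p6, the core of the cAMP response element, TGACG or its reverse complement CGTCA, lies in 17.8% of 32851 windows of 250 bases, and the full element TGACGTCA in 1.55%. Capitals mark TGACG or CGTCA, and each sequence runs 5′ to 3′ on the gene's strand and ends at the base before the start.
Fos, chr12:85473640-85473889, plus strand: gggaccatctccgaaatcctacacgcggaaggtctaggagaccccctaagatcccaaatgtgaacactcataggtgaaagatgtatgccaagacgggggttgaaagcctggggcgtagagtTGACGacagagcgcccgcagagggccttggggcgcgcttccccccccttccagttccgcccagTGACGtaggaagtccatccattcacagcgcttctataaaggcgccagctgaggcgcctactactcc
Nr4a1, chr15:101266596-101266845, plus strand: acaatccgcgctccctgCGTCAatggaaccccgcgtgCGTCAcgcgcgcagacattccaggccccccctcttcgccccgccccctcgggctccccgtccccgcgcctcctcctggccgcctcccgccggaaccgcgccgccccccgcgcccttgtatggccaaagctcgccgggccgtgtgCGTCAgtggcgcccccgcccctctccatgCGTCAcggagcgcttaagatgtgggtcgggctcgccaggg
Junb, chr8:84978749-84978998, minus strand: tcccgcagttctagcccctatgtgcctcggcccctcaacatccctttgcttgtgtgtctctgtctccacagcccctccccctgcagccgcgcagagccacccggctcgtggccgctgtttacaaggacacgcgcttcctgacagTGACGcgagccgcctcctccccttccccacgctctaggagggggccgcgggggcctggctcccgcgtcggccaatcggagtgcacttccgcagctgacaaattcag
The Fos window holds 2 matches, 129 and 66 bases before the start, the Nr4a1 window 4 and the Junb window 1. None of the 3 holds the full element. The serum response element was also searched on both strands, lies in 1.47% of windows and has no match in these 3. Bases farther than 250 before the start were not searched, so an element there would have been missed. The start that RefSeq gives for Nr4a1 lies inside the longer gene annotated by GENCODE. A match describes the letters only and is not a binding site.

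Interferon response genes were a small group on the higher side. Of 24 listed genes only 6 were abundant enough to be measured in layer 4 spots, 4 of these were called higher in O-Ctrl and 0 lower, and their median log2 ratio was 0.86. Gbp2 (chr3:142620602-142638008), an interferon-induced GTPase, had 7.99 CPM (4.73 to 12.6) in O-Ex, 25.4 (19.9 to 31.9) in O-Ctrl and 2.27 (0.913 to 4.68) in Y-Ctrl, with a log2 ratio of 2.06. Igtp (chr11:58199556-58207591), another interferon-inducible GTPase, had 10.7 CPM (6.82 to 15.8) in O-Ex, 24.0 (18.7 to 30.3) in O-Ctrl and 9.08 (6.04 to 13.1) in Y-Ctrl and a ratio of 1.04. For both, O-Ctrl was the highest section and overlapped neither other section. AW112010 had 11.98 CPM in O-Ex, 14.4 CPM in O-Ctrl and 3.89 CPM in Y-Ctrl with a ratio of 1.12. Here O-Ex lay near O-Ctrl and overlapped it.

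Gbp2 had like ratios in every set of spots, with log2 ratios of 2.14 in the other spots, 2.02 in upper layer, 2.20 in layer 5 and 2.05 in layer 6 spots. It was seen in 13, 51 and 6 layer 4 spots of O-Ex, O-Ctrl and Y-Ctrl, so in O-Ctrl it was spread over many spots. After thinning the shares were 1.67% in O-Ex, 10.8% in O-Ctrl and 0 of 120 spots in Y-Ctrl, which allows up to 2.5% by the limit of 3 counts. The call of Gbp2 was lost in 4 of 21 other settings, that of Igtp in 1 and that of AW112010 in 8.

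The windows before Gbp2 and Igtp are shown for the interferon-stimulated response element, a pair of GAAA with 2 bases between them on either strand, which lies in 2.98% of the 32851 windows, and the gamma-activated site TTCNNNGAA, which lies in 7.02%. Capitals mark either motif.
Gbp2, chr3:142620413-142620662, plus strand: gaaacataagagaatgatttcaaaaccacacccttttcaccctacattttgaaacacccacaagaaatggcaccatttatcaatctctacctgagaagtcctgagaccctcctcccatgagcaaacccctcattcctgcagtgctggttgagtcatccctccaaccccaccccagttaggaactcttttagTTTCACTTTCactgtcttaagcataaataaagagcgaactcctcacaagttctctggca
Igtp, chr11:58199306-58199555, plus strand: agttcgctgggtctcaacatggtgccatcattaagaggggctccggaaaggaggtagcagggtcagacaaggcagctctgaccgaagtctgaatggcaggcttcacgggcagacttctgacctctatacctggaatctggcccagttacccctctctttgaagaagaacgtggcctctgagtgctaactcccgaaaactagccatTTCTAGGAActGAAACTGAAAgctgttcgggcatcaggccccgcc
Gbp2 holds TTTCACTTTC, 59 to 50 bases before the RefSeq start, which by GENCODE lies already inside the gene. Igtp holds GAAACTGAAA, 34 to 25 bases before the start, and TTCTAGGAA, 45 to 37 bases before it, and these do not overlap. The share of interferon genes with either motif was not counted. These letters say nothing of which factor was bound in the sections.

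Interneuron genes were another neuronal group with called members. Of 12 measured, 3 were called higher in O-Ctrl and 0 lower, with a median log2 ratio of 0.28. Over 21 other settings the number called higher ranged from 0 to 4, with 0 in 60 spots per section, after thinned ranking or at 2-fold. The list's median fell to 0.03 after thinned ranking. Pvalb (chr15:78191114-78206400), the calcium buffer parvalbumin of fast-spiking cells, had 445 CPM (418 to 474) in O-Ex, 599.6 (572 to 628) in O-Ctrl and 363 (342 to 385) in Y-Ctrl, with a ratio of 0.72. Syt2, a calcium sensor of fast-spiking terminals, had 30.2 CPM in O-Ex, 38.7 CPM in O-Ctrl and 20.1 CPM in Y-Ctrl, with a ratio of 0.80. Cnr1, the cannabinoid receptor of cholecystokinin interneurons, had 52.8 CPM in O-Ex, 50.7 CPM in O-Ctrl and 27.6 CPM in Y-Ctrl, with a ratio of 0.77. O-Ctrl was highest for Pvalb and Syt2, and O-Ex lay beside O-Ctrl for Cnr1. The call of Syt2 was lost in 5 of 21 settings and that of Cnr1 in 10. Cort, a peptide related to somatostatin, had 31.9 CPM in O-Ex, 41.8 CPM in O-Ctrl and 13.6 CPM in Y-Ctrl and a ratio of 1.33, while Sst itself had 328 CPM in O-Ex, 241 CPM in O-Ctrl and 308 CPM in Y-Ctrl, lowest in O-Ctrl and not called.

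These ratios differed between layers. Pvalb had log2 ratios of 0.37 in upper layer, 0.54 in layer 5 and -0.31 in layer 6 spots, and Cort had 1.43, -0.30 and -0.27. Cox6a2, a respiratory chain subunit known from parvalbumin cells and muscle, had 61.2 CPM in O-Ex, 106 CPM in O-Ctrl and 53.5 CPM in Y-Ctrl, with ratios of 0.92 in layer 4 and -0.71 in layer 6 spots. Pvalb was seen in 107, 112 and 110 spots of O-Ex, O-Ctrl and Y-Ctrl. Its call was lost in 5 of 21 settings, among them 60 or 240 spots per section and thinned ranking, and that of Cnr1 in 10.

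Blood and vessel transcripts went both ways. All 4 measured erythrocyte genes were called lower in O-Ctrl, with a median log2 ratio of -0.75. Hbb-bs, a beta globin, had 487 CPM (459 to 517) in O-Ex, 257 (238.7 to 276) in O-Ctrl and 401 (379 to 424) in Y-Ctrl. The alpha globin Hba-a1 had 182 CPM (164 to 200) in O-Ex, 110.0 (98.3 to 123) in O-Ctrl and 179 (165 to 195) in Y-Ctrl. O-Ctrl was the lowest section for both and overlapped neither other section. The globin pairs Hba-a1 and Hba-a2, and Hbb-bs and Hbb-bt, have near-identical sequences, so reads may be split between them. The list's median was -0.69 in upper layer spots but 0.02 in layer 5 spots and -0.06 in the other spots.

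Of 10 measured endothelial genes 2 were called higher in O-Ctrl and 3 lower. Ly6a had 99.0 CPM (86.4 to 113) in O-Ex, 109 (97.4 to 122) in O-Ctrl and 44.5 (37.3 to 52.5) in Y-Ctrl, with a ratio of 1.21. Ly6c1 had 83.9 CPM in O-Ex, 93.6 CPM in O-Ctrl and 49.6 CPM in Y-Ctrl, with a ratio of 0.85. For these surface proteins of brain endothelium both O sections lay above Y-Ctrl. Ptprb, a phosphatase of vessel walls, had 13.3 CPM in O-Ex, 4.80 CPM in O-Ctrl and 14.3 CPM in Y-Ctrl, with a ratio of -0.98. Itm2a had 43.5 CPM in O-Ex, 25.0 CPM in O-Ctrl and 50.3 CPM in Y-Ctrl, with a ratio of -0.88. In both, O-Ctrl was below the other sections, and the call of Ptprb was lost in 8 of 21 settings. Slco1a4, a transporter of the blood-brain barrier, had 17.3 CPM in O-Ex, 10.3 CPM in O-Ctrl and 23.04 CPM in Y-Ctrl, with a ratio of -0.88. Mgp, a calcification inhibitor made by vessel and meningeal cells, had 45.7 CPM in O-Ex, 14.7 CPM in O-Ctrl and 36.0 CPM in Y-Ctrl and a ratio of -1.05, which ranged from -1.23 to -0.05 over 21 settings. Its 6 highest spots held 33.0%, 41.9% and 58.6% of its counts, so few spots set its level.

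Some other neuronal genes were called lower in O-Ctrl as single members of their lists. Calb1, the calcium buffer calbindin, had 113 CPM in O-Ex, 90.8 CPM in O-Ctrl and 156 CPM in Y-Ctrl, with a ratio of -0.75. Lzts3, a postsynaptic density protein, had 36.4 CPM in O-Ex, 32.9 CPM in O-Ctrl and 57.8 CPM in Y-Ctrl, with a ratio of -0.73. For Calb1 both O sections were below Y-Ctrl without overlap. Calb1 is also an upper layer marker, and Lamp5, another, had 193, 232 and 273 CPM in layer 4 spots of O-Ex, O-Ctrl and Y-Ctrl. Whether a different share of upper layer tissue went with these ratios was not tested. Gfap, the filament protein of reactive astrocytes, had 19.1 CPM in O-Ex, 19.9 CPM in O-Ctrl and 9.08 CPM in Y-Ctrl and was called higher with a ratio of 0.82, a call lost in 6 of 21 settings. The other 2 of 3 measured reactive astrocyte genes had ratios below 0, so the list's median was -0.28, and 0 of the 13 genes of the astrocyte list were called.

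The remaining genes with the largest ratios are listed by value. AC149090.1, on an unplaced scaffold, had 228 CPM in O-Ex, 213 CPM in O-Ctrl and 75.0 CPM in Y-Ctrl, with a log2 ratio of 1.45, and was above Y-Ctrl in both O sections. Cbln1, a synapse organizer secreted by neurons, had 32.4 CPM in O-Ex, 25.4 CPM in O-Ctrl and 9.08 CPM in Y-Ctrl and a ratio of 1.11. Rhebl1, Zfp160 and Litaf had ratios of 0.98, 0.97 and 0.95, and Zbtb17 and Fam3a of -1.004 and -0.88. The calls of these genes, in that order, were lost in 6, 7, 9, 6 and 8 of 21 settings. The calls of Arc, Ly6a and AC149090.1 were kept in all 21 other settings, and those of Fos, Nr4a1, Igtp, Hbb-bt, Hba-a1 and Hba-a2 in 20. Cbln1 lost its call in 6 settings and turned to -0.67 when spots were ranked after thinning. Its 6 highest spots held 87.7%, 64.9% and 89.3% of its counts in O-Ex, O-Ctrl and Y-Ctrl.

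O-Ex was compared with the same O-Ctrl section, so a value that is extreme in O-Ctrl enters both comparisons, and the ratios are set side by side without any measure of likeness. Nuclear and neuronal noncoding RNAs, erythrocyte transcripts, some vessel genes such as Acta2, Vtn and Cldn5, and the choroid plexus transcript Ttr were higher in layer 4 spots of O-Ex. The elongation factor gene Eef1a2 and the early genes Fosb, Egr3 and Nr4a2 were also higher. Gbp2, Igtp, Dusp1 and Arc were lower. Of 8748 measured genes, 108 (1.23%) were called higher and 23 (0.263%) lower. This split depends on scaling: of the called genes 82.4% were higher with CPM, 62.7% (69 higher and 41 lower) with TMM scaling and 67.0% (73 and 36) with median-of-ratios scaling. The median log2 ratio over all genes was 0.04 with CPM and -0.02 with TMM scaling, and 97.37% of genes lay within 1.5-fold with CPM.

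Of 7 measured genes in the list of dendritic and nuclear noncoding RNAs, 5 were called higher in O-Ex and 0 lower, with a median log2 ratio of 0.77 against 0.04 over all genes. Snhg11 (chr2:158375638-158386145), a neuronal noncoding host gene, had 464 CPM (436 to 493) in O-Ex, 249.9 (232 to 269) in O-Ctrl and 294 (275 to 314) in Y-Ctrl, with a ratio of 0.88. Meg3, an imprinted noncoding RNA kept in the nucleus, had 436 CPM (409 to 464) in O-Ex, 253 (235 to 272) in O-Ctrl and 297 (278 to 317) in Y-Ctrl, with a ratio of 0.77. Malat1, of nuclear speckles, had 179.7 CPM (163 to 198) in O-Ex, 102 (90.2 to 114) in O-Ctrl and 101 (90.0 to 113) in Y-Ctrl, with a ratio of 0.79. In all 3 genes O-Ex was the highest section and overlapped neither other section.

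Miat had 55.9 CPM in O-Ex, 30.5 CPM in O-Ctrl and 44.5 CPM in Y-Ctrl with a ratio of 0.78. Neat1, the scaffold of paraspeckles, had 34.2 CPM in O-Ex, 19.2 CPM in O-Ctrl and 11.7 CPM in Y-Ctrl with a ratio of 0.69. The most abundant member, Bc1, a short RNA carried into dendrites, had 7112 CPM in O-Ex, 6123 CPM in O-Ctrl and 8795 CPM in Y-Ctrl and a ratio of 0.22, and was not called. The list's median was 0.70 in upper layer, 0.46 in layer 5 and 0.59 in layer 6 spots and 0.31 in the other spots. After thinning, Malat1 was seen in 43.3%, 25.8% and 21.7% of the layer 4 spots of O-Ex, O-Ctrl and Y-Ctrl and Meg3 in 70.8%, 49.2% and 53.3%. With a minimum of 6000 UMIs per spot, which leaves out the shallow spots of O-Ex, 5 members were still called. The ratio of Malat1 was lowest in that setting, at 0.60, and highest with the mean of the spots' own CPM, at 1.32. At 2-fold 0 members were called.

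A further pair of noncoding loci was higher in O-Ex and is uncertain. Gm42418, which overlaps a ribosomal RNA sequence, had 2316 CPM in O-Ex, 1093 CPM in O-Ctrl and 983 CPM in Y-Ctrl, with a ratio of 1.08 in layer 4 spots and 0.30 in the other spots. Gm47283, annotated on the Y chromosome at chrY:90784738-90816464 (mm10), had 35.0 CPM in O-Ex, 8.23 CPM in O-Ctrl and 8.11 CPM in Y-Ctrl, with a ratio of 1.598. O-Ex was highest for both, and the authors' counting may have shared reads with copies elsewhere.

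Erythrocyte transcripts were higher in O-Ex. All 4 measured erythrocyte genes were called higher, with a median log2 ratio of 0.86 in layer 4 spots and 0.86 in the other spots, 0.76 in upper layer, 0.84 in layer 5 and 1.34 in layer 6 spots. The ratios were 0.91 for Hbb-bs, 1.00 for Hbb-bt, 0.70 for Hba-a1 and 0.81 for Hba-a2. O-Ex and Y-Ctrl overlapped for Hba-a1, Hba-a2 and Hbb-bt. Hbb-bs was seen in 113, 97 and 113 spots, and its 6 highest spots held 34.4%, 56.9% and 53.2% of its counts, so the transcript was more evenly spread in O-Ex.

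Of 10 endothelial genes 3 were called higher and 0 lower, and of 3 measured mural genes 2 were called higher. Of the endothelial genes 3 had ratios below 0, among them Ly6a at -0.13 and Ly6c1 at -0.15. Over 21 other settings the endothelial calls ranged from 0 to 4, with 0 after ranking spots on thinned counts, with a pseudocount of 20 CPM, a mean of at least 50 CPM or a 2-fold size. The mural calls ranged from 0 to 2, with 0 in 60 spots per section or a mean of at least 50 CPM. Cldn5, the tight junction protein claudin 5, had 57.7 CPM in O-Ex, 34.3 CPM in O-Ctrl and 41.5 CPM in Y-Ctrl with a ratio of 0.67. Ptprb and Itm2a had ratios of 0.90 and 0.69. Acta2, the smooth muscle actin of arterioles, had 22.6 CPM (16.9 to 29.8) in O-Ex, 5.49 (3.13 to 8.91) in O-Ctrl and 11.4 (7.91 to 15.8) in Y-Ctrl and a ratio of 1.40. Vtn, vitronectin of pericytes, had 73.2 CPM (62.5 to 85.3) in O-Ex, 35.3 (28.8 to 42.8) in O-Ctrl and 38.0 (31.4 to 45.5) in Y-Ctrl and a ratio of 0.96. O-Ex was above both controls for Acta2 and Vtn without overlap. Acta2 was seen in 22, 10 and 8 layer 4 spots of O-Ex, O-Ctrl and Y-Ctrl, and its 6 highest spots held 62.8%, 75.0% and 94.3% of its counts. Its call was lost in 5 of 21 settings, among them the one without those spots, that of Vtn in 5 and that of Itm2a in 8. Mgp had a ratio of 1.36. The part of vessel content in the other ratios of these spots was not tested.

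Ttr had 390.5 CPM (365 to 417) in O-Ex, 131 (118 to 144) in O-Ctrl and 129 (116 to 142) in Y-Ctrl in layer 4 spots and a log2 ratio of 1.54. It was seen in 120, 109 and 106 of 120 spots, and in 77.5%, 25.0% and 29.2% after thinning. The other spots of O-Ex also held more Ttr than those of O-Ctrl and Y-Ctrl, at 13050, 5119 and 4192 CPM. Choroid plexus markers together summed to 569, 250.3 and 241 CPM in layer 4 spots, more of it from Ttr than from the other 6 markers together, and 2 of the 7 reached the level of a measured gene. In upper layer, layer 5 and layer 6 spots Ttr had ratios of 1.41, 0.24 and 3.19. The layer 4 ratio ranged from 0.18 (score without Mef2c) to 1.75 over 21 settings, and whether free RNA from choroid plexus reached these spots was not tested.

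**Figure D4:**
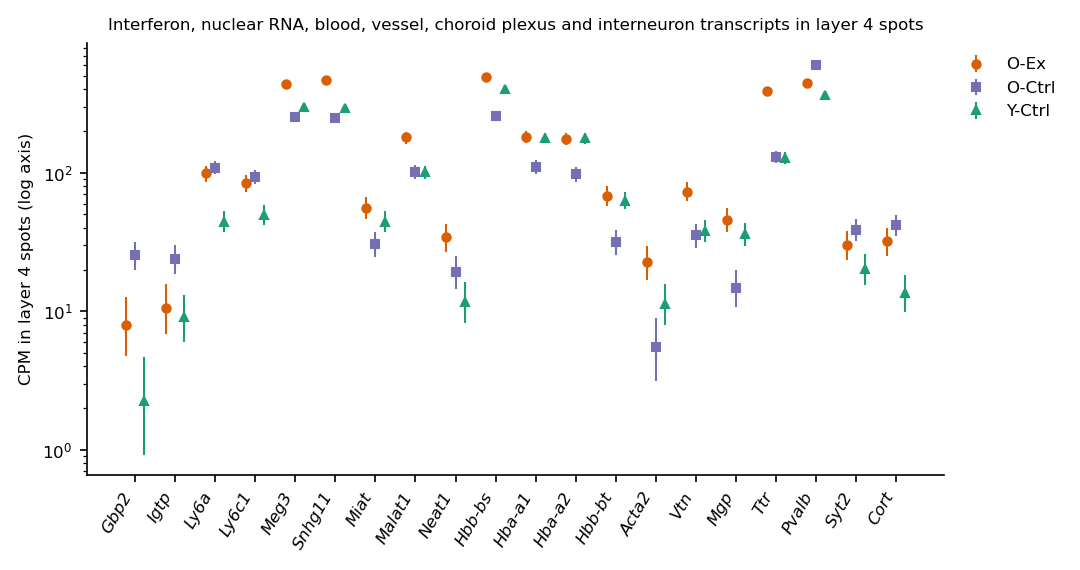
CPM on a log axis of interferon, nuclear noncoding, blood, vessel, choroid plexus and interneuron transcripts in layer 4 spots of O-Ex, O-Ctrl and Y-Ctrl, with exact 95% Poisson intervals as bars. Gbp2, at 7.99, 25.4 and 2.27 CPM, and Pvalb, at 445, 599.6 and 363 CPM, are highest in O-Ctrl, while Meg3, at 436, 253 and 297 CPM, and Ttr, at 390.5, 131 and 129 CPM, are highest in O-Ex.

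Activity genes did not move one way in O-Ex. Of 17 immediate early genes 3 were called higher and 2 lower, with a median log2 ratio of 0.22. Fosb, a relative of Fos, had 15.1 CPM in O-Ex, 6.17 CPM in O-Ctrl and 9.08 CPM in Y-Ctrl, with a ratio of 0.85. Egr3 had a ratio of 0.80. Nr4a2, a nuclear receptor, had 32.4 CPM in O-Ex, 19.5 CPM in O-Ctrl and 12.7 CPM in Y-Ctrl, with a ratio of 0.61. O-Ex was the highest section for these. Dusp1, a MAP kinase phosphatase, had 30.2 CPM (23.4 to 38.2) in O-Ex, 64.8 (55.9 to 74.7) in O-Ctrl and 83.4 (73.5 to 94.2) in Y-Ctrl, with a ratio of -0.99, and Arc a ratio of -0.60. O-Ex was the lowest section for Dusp1 and Arc. Egr1 had a ratio of 0.48 and Fos of 0.27, and neither was called. The call of Fosb was lost in 8 of 21 settings, that of Arc in 5 and that of Dusp1 in 1.

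Of 9 measured genes of activity-linked secreted and growth factors, 1 was called, with a list median of 0.38. This was Bdnf, the neurotrophin brain-derived neurotrophic factor, with 30.2 CPM (23.4 to 38.2) in O-Ex, 17.5 (13.02 to 22.99) in O-Ctrl and 18.2 (13.7 to 23.6) in Y-Ctrl and a ratio of 0.65 in layer 4 spots and 0.29 in the other spots. O-Ex was highest, but its interval overlapped that of Y-Ctrl, and the call was lost in 13 of 21 settings. Homer1, a postsynaptic scaffold with an activity-induced short form, had 211 CPM in O-Ex, 143 CPM in O-Ctrl and 168 CPM in Y-Ctrl and a ratio of 0.54, short of the 1.5-fold size. Ntrk2, the receptor for brain-derived neurotrophic factor, had 274 CPM in O-Ex, 224 CPM in O-Ctrl and 229.7 CPM in Y-Ctrl and a ratio of 0.29.

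Interferon genes were lower or not called in O-Ex: of 6 measured, 0 were called higher and 2 lower, with a median of -0.25. Summed over all 24 listed genes, the level was 203 CPM (185 to 222) in O-Ex, 236 (219 to 254) in O-Ctrl and 102 (91.2 to 114) in Y-Ctrl. O-Ex thus overlapped O-Ctrl and lay above Y-Ctrl. Over 21 other settings the number called lower ranged from 0 to 4, with 0 after thinned ranking. Gbp2 had a ratio of -1.23 and Igtp of -0.89, both with O-Ex below O-Ctrl, and these calls were lost in 4 and 5 of 21 settings. For Igtp the intervals of O-Ex and Y-Ctrl overlapped, and for Gbp2 O-Ex was above Y-Ctrl. H2-K1, a heavy chain of MHC class I, was called higher, with 62.1 CPM in O-Ex, 36.0 CPM in O-Ctrl and 28.9 CPM in Y-Ctrl and a ratio of 0.71, the only one of 5 measured MHC class I genes. Trem2, a receptor of microglia, had 22.6 CPM in O-Ex, 11.3 CPM in O-Ctrl and 12.7 CPM in Y-Ctrl and a ratio of 0.76, a call lost in 10 of 21 settings. It was the single member called of 8 measured homeostatic microglia genes, of which 3 had ratios below 0, and of 9 disease-associated microglia genes 0 were called, with a median of -0.03.

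Eef1a2 (chr2:181147653-181157014), the neuronal and muscle form of the translation elongation factor eEF1A, was higher in O-Ex by a like size in every set of spots. It had 385 CPM (359.9 to 412) in O-Ex, 186 (171 to 203) in O-Ctrl and 262 (245 to 281) in Y-Ctrl, with a ratio of 1.03 in layer 4 spots, 1.10 in upper layer, 0.91 in layer 5, 0.92 in layer 6 and 0.91 in the other spots. O-Ex was highest and O-Ctrl lowest, with no overlap among the sections. It was called in all 21 other settings and was seen in 70.0%, 42.5% and 58.3% of thinned spots. Of 12 translation factor genes it was the only one called, and Eef1a1, its widely expressed relative, had 1632, 1631 and 1663 CPM in O-Ex, O-Ctrl and Y-Ctrl and a ratio of 0.00.

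Several single genes of other groups were higher in O-Ex. Pde10a, a phosphodiesterase best known from striatum, had 43.5 CPM in O-Ex, 15.8 CPM in O-Ctrl and 17.2 CPM in Y-Ctrl, with ratios of 1.22 in layer 4 spots and 0.25 in the other spots. Ppp1r1b, also striatal, had a layer 4 ratio of 0.08 and was not called. Per2, a repressor of the circadian clock, had 34.6 CPM in O-Ex, 15.8 CPM in O-Ctrl and 16.6 CPM in Y-Ctrl, with ratios of 0.93 in layer 4 spots and 0.32 in the other spots, and was the only one of 16 clock genes called. For Pde10a and Per2 the difference between these ratios was not tested. Dapk3, a death-associated kinase, had 35.5 CPM in O-Ex, 10.6 CPM in O-Ctrl and 18.2 CPM in Y-Ctrl and a ratio of 1.37. Bcl2, an inhibitor of apoptosis, had 17.3 CPM in O-Ex, 5.83 CPM in O-Ctrl and 7.79 CPM in Y-Ctrl and a ratio of 1.04. It reached 10 CPM only in O-Ex, so it too was measured through that section. Hspa5, the chaperone BiP of the endoplasmic reticulum, had 182 CPM in O-Ex, 118 CPM in O-Ctrl and 121 CPM in Y-Ctrl and a ratio of 0.61. Of 13 such chaperones 12 had ratios above 0 and 1 was called, with a median of 0.28. The call of Hspa5 was lost in 9 of 21 settings, TMM and median-of-ratios scaling among them, and that of Bcl2 in 10.

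Among the genes lower in O-Ex, few shared a list. Yjefn3 had 16.0 CPM in O-Ex, 32.9 CPM in O-Ctrl and 18.8 CPM in Y-Ctrl and a ratio of -0.85, but the sign turned in 5 of 21 settings. Cox6a2 had a ratio of -0.74. Elk1, a transcription factor downstream of MAP kinase, had 20.4 CPM in O-Ex, 36.3 CPM in O-Ctrl and 27.6 CPM in Y-Ctrl and a ratio of -0.70, with -0.55 in the other spots. Gpr19, Cdpf1 and Borcs6 had ratios of -0.84, -0.73 and -0.70, calls lost in 11, 9 and 10 of 21 settings. Sp3os, at -0.91, is an antisense gene, and whether strand was used in counting is not given in the sources used here, so its reads cannot be told from those of its partner.

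In several gene groups of layer 4 no member was called in one or both comparisons. Of 11 measured layer 4 genes outside the rule 0 were called in either, with medians of -0.08 for O-Ctrl over Y-Ctrl and -0.02 for O-Ex over O-Ctrl. Kcnh5, a potassium channel gene of this group, had 7.10 CPM (4.06 to 11.5) in O-Ex, 15.1 (11.0 to 20.2) in O-Ctrl and 12.3 (8.72 to 16.9) in Y-Ctrl and a ratio of -0.73 in O-Ex over O-Ctrl, which passed the size, but its intervals overlapped. All 30 nuclear respiratory chain genes were measured and 0 were called, with medians of 0.11 and -0.08. Of them 27 had a ratio above 0 in O-Ctrl over Y-Ctrl and 22 a ratio below 0 in O-Ex over O-Ctrl. Of 16 glutamate receptor genes 13 had ratios above 0 in O-Ex over O-Ctrl and 0 were called, with a median of 0.17, and Gria2, an AMPA receptor subunit, had 375 CPM in O-Ex, 264 CPM in O-Ctrl and 303 CPM in Y-Ctrl. Of 9 GABA-A receptor genes 8 had ratios below 0 in that comparison and 0 were called, with a median of -0.10. Excitatory neuron, synaptic vesicle and astrocyte lists had 0 calls in O-Ex over O-Ctrl as well. With 1 section per group, no direction is read from such small shifts.

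**Figure D5:**
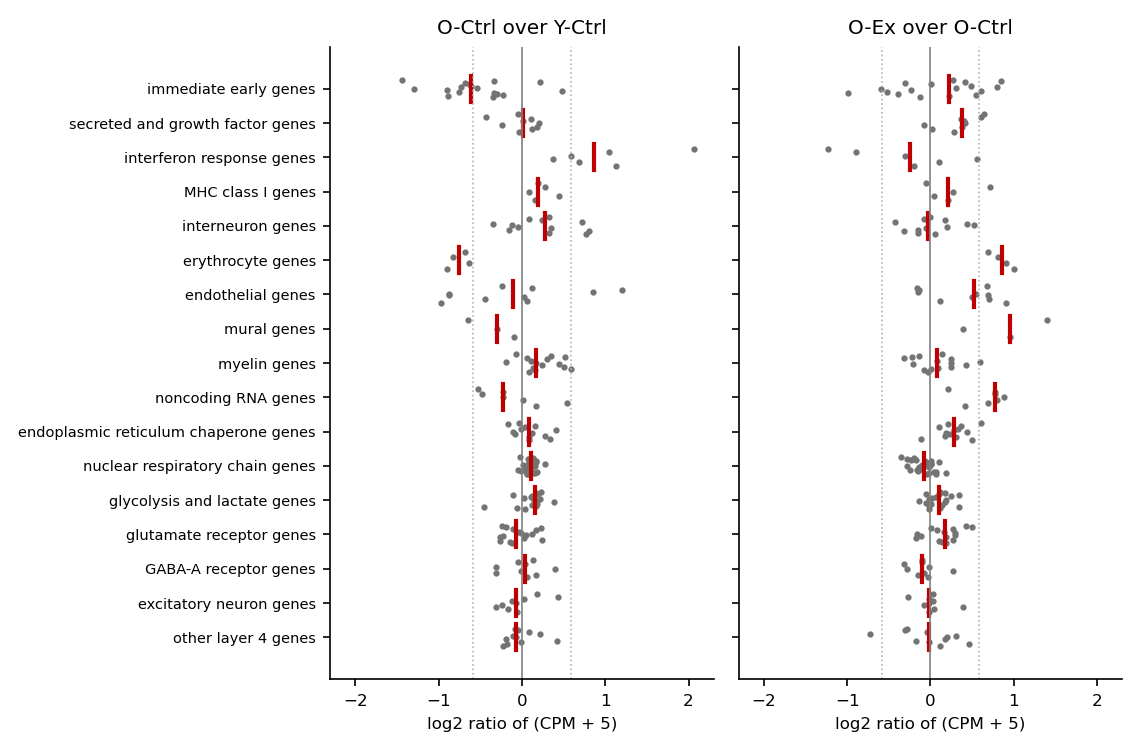
Log2 ratio of CPM plus 5 in layer 4 spots for each measured gene (points) of 17 lists, with the list's median as a bar, for O-Ctrl over Y-Ctrl and O-Ex over O-Ctrl. Immediate early genes have a median of -0.61 in O-Ctrl over Y-Ctrl, and erythrocyte genes have medians of -0.75 and 0.86 in the 2 comparisons.

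Most called genes had the same direction in the other spots, though seldom the same size. Of the 49 genes called higher in O-Ctrl over Y-Ctrl, 37 had the same direction in the other spots and 10 reached 1.5-fold there, against 0.25% of all measured genes. Of the 51 called lower, 44 had the same direction and 3 reached 1.5-fold, against 0.15%. Of the 108 called higher in O-Ex over O-Ctrl, 104 had the same direction in the other spots and 15 reached 1.5-fold, against 0.31%. Of the 23 called lower, 15 had the same direction and 2 reached 1.5-fold, against 0.11%. In upper layer spots the same direction was seen for 38 of the 49, 38 of the 51, 91 of the 108 and 19 of the 23. In layer 5 spots it was seen for 33, 35, 79 and 18 of them, and in layer 6 spots for 31, 29, 79 and 16. The share of all measured genes with each direction in these sets was not counted. The counts of same direction therefore have nothing to be set against and are not read as agreement. The genes were picked for their ratio in layer 4, and all these sets share their section, so smaller ratios elsewhere are no result about layer 4. The neighbouring sets carried their own markers: Lamp5 stood at 459, 499.8 and 561 CPM in upper layer spots, Etv1 at 301, 325 and 277 CPM in layer 5 spots and Rprm at 406, 405 and 399 CPM in layer 6 spots of O-Ex, O-Ctrl and Y-Ctrl. Rorb stood at 26.8, 28.9 and 32.7 CPM in the upper layer set.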

How the data were processed

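The files deposited by the authors give UMI counts, not normalized, for 31053 genes and 4992 barcodes in each section. Per the file headers they come from Space Ranger 2.0.0, and per the submitters' processing notes from mm10. Nuclear RNA is the molecule on the labels, while whole sections are what the protocol describes. Spot positions were not used here, so layers rest on expression alone. Coordinates are from GENCODE vM21 on mm10, counted from 1.

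Spots were taken by score as described, counts were summed over the 120 spots and divided by all their UMIs. Intervals are exact at 95%, Poisson for CPM and binomial for shares, and cover counting error only. Ratios are log2 of CPM plus 5, which understates differences of scarce genes. The rule's 5 genes were left out. With 1 section per group there was no test. Upper layer, layer 5 and layer 6 sets were the 120 highest spots for their own markers, without layer 4 spots. For a count of 0 a limit of 3 counts is given in place of the interval.

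Each comparison named the 10 highest and 10 lowest called genes, without region markers and sex-linked genes, layer 4 over the other spots the 10 highest and 5 lowest, and each list up to 2 abundant and 2 extreme members per comparison. Any other gene was picked with its values already seen. The spots and all 48 lists were chosen with earlier results of these data known. Of the list genes, 2 had no match. Some genes are not reported here. The 21 alternatives changed the spots, the scaling (TMM in edgeR 4.0.16, median-of-ratios in DESeq2 1.42.0) and the thresholds. A lower fold, a lower minimum level or overlapping intervals cannot remove a call. No change of fold or minimum level alters a ratio. Scripts ran in python 3.11.15 with numpy 2.4.6, scipy 1.17.1 and pandas 2.3.3. The call rule was tried on simulated counts that held counting error only. That trial says nothing of the spread between spots, sections or animals.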

Additional observations from a re-analysis of the deposited data

Results flagged for a closer look

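For 4 genes the log2 ratio of O-Ctrl over Y-Ctrl was past 1.5-fold in layer 4 spots and past it in the opposite direction in a neighbouring layer of the same sections, and none of these differences was tested. Mgp had -1.05 in layer 4 and 0.70 in layer 5 spots. Cox6a2 had 0.92 in layer 4 and -0.71 in layer 6 spots. Lrrc3b had -0.75 in layer 4 and 0.72 in layer 6 spots, and Stxbp6 had -0.62 in layer 4 and 1.07 in layer 6 spots.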

How the results depend on the processing

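No paired analysis was possible because each group has 1 section, and no replicate could be left out. The numbers called higher and lower in O-Ctrl over Y-Ctrl were 49 and 51, and in O-Ex over O-Ctrl 108 and 23. They became 25, 23, 53 and 9 with 240 spots per section, 10, 14, 21 and 3 with a pseudocount of 20 CPM, 7, 14, 22 and 5 at 50 CPM or more, 7, 4, 10 and 1 at 2-fold and 115, 116, 193 and 65 at a fold below 1.5, where size or filter itself sets the count. With 60 spots per section 67 were higher in O-Ex, without Rorb in the score 33 were lower in O-Ctrl, and at 2 CPM or more 74 were higher in O-Ctrl. TMM scaling gave 69 higher and 41 lower in O-Ex, median-of-ratios scaling 36 lower, and size alone, with overlapping intervals allowed, 180 and 50. In O-Ex over O-Ctrl, 36 of the genes called higher and 4 of those called lower were called again when spots were ranked after thinning, against 14 and 18 in O-Ctrl over Y-Ctrl. Of 1596 ratios of named genes under the 21 settings, 1506 moved by less than their counting interval, 79 moved further and 11 changed sign. Settings that change only the fold, the minimum level or the need for separate intervals leave a ratio as it is. Their ratios are among the 1506 by construction. The sign changes were Cbln1 (-0.67, thinned ranking) and Yjefn3, which in O-Ctrl over Y-Ctrl and O-Ex over O-Ctrl had -0.70 and 0.70 with 60 spots, -0.41 and 0.31 with a minimum of 1000 UMIs, -0.23 and 0.33 without Mef2c in the score, -0.50 and 0.29 with 1 score limit for all sections and -0.41 and 0.15 without the 6 highest spots. The causes were not tested. Depth limits what the layer 4 spots show: 18 of 24 interferon genes were under 10 CPM.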

Other observations

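Some genes called in layer 4 spots belong to none of the groups above and are given by value, chosen after they were seen. Lars2, the mitochondrial leucyl-tRNA synthetase, had 191 CPM in O-Ex, 98.0 CPM in O-Ctrl and 86.0 CPM in Y-Ctrl, and AY036118, a noncoding locus beside Gm42418, had 18.2 CPM in O-Ex, 8.23 CPM in O-Ctrl and 10.7 CPM in Y-Ctrl. Ptgds, the prostaglandin D synthase of meninges and oligodendrocytes, had 968 CPM in O-Ex, 632 CPM in O-Ctrl and 566 CPM in Y-Ctrl, and Cldn11, a claudin of myelin, had 71.9 CPM in O-Ex, 45.9 CPM in O-Ctrl and 53.2 CPM in Y-Ctrl, while 1 of 15 measured myelin genes was called in O-Ex over O-Ctrl. All 4 were highest in O-Ex. The calls of Ptgds and Cldn11 were each lost in 6 of 21 settings, TMM and median-of-ratios scaling among them. That of Ptgds was also lost without its 6 highest spots. Crym, a thyroid hormone binding protein of cortical neurons, had 51.5 CPM in O-Ex, 29.8 CPM in O-Ctrl and 21.1 CPM in Y-Ctrl, again with O-Ex highest. Penk, the precursor of enkephalin, had 15.1 CPM in O-Ex, 18.5 CPM in O-Ctrl and 7.79 CPM in Y-Ctrl, and Htr2c, a serotonin receptor, had 25.3 CPM in O-Ex, 31.9 CPM in O-Ctrl and 17.2 CPM in Y-Ctrl, both lowest in Y-Ctrl.

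Mitochondrial transcripts made up 17.7% of layer 4 UMIs in O-Ex, 18.6% in O-Ctrl and 18.7% in Y-Ctrl, and 17.8%, 19.8% and 19.7% of those of the other spots. Xist, the RNA that coats the inactive X chromosome, had 47.0 CPM in O-Ex, 25.0 CPM in O-Ctrl and 13.3 CPM in Y-Ctrl in layer 4 spots, with O-Ex highest and Y-Ctrl lowest. The 6 listed sex-linked genes, Xist among them, summed to 47.5, 25.0 and 13.95 CPM in O-Ex, O-Ctrl and Y-Ctrl, nearly all of it Xist. Of these genes 4, 5 and 3 had no counts in layer 4 spots. The sex of the animals is not given in the labels, and whether it moved with other ratios was not tested.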
